A study of Arabidopsis thaliana with 9 samples.

Results

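Seedlings carrying 35S::GA20OX were compared with wild-type seedlings, using the 3 arrays of each genotype, 6 of the 9 arrays in the series, over all 20777 loci measured. All plants were Arabidopsis thaliana of ecotype Col-0, and RNA came from the vegetative part of seedlings at growth stage 1.03, raised in vitro on MS medium at 22 °C with 16 h of light and 8 h of dark. Wild type carried no transgene, 35S::GA20OX carried a gibberellin 20-oxidase gene behind the 35S promoter, while the remaining 3 arrays were of 35S::JAW, which overexpresses the JAW microRNA locus in the same background and entered the fit as a further genotype. The replicates are labelled as biological. The series' design text names a GRF5 line, whereas the labels of all 6 transgenic samples name 35S::GA20OX or 35S::JAW, and the labels were followed. The 35S promoter is known to be active in most tissues, although the arrays do not show in which cells the transgene was expressed. The number of independent transgenic lines or of plants behind an array is not given in the sources used here.

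Gibberellins are diterpene hormones that promote cell elongation and division, germination and flowering. Their late synthesis runs through GA 20-oxidases and GA 3-oxidases, which are dioxygenases that finish the bioactive molecule, while GA 2-oxidases inactivate it. The hormone binds the GID1 receptors, and the complex leads the DELLA repressors (GAI, RGA and the RGL proteins) to destruction. Loss of DELLA lowers the transcripts of several synthesis and receptor genes, a negative feedback, and frees PIF transcription factors to act on elongation genes.

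Values are log2 expression values, so a difference of 1 is a 2-fold change, and the number of arrays limits their precision. Values run from replicate 1 to 3, wild type stands before 35S::GA20OX where 2 sets are set against each other, and ± gives the standard error of a difference. A locus is said to be called, to have risen or to have fallen where limma's Benjamini-Hochberg adjusted p over all loci was under 0.05. Array medians lay between 6.35 and 6.41, and Pearson's r, computed over loci and so a description only, ran from 0.9965 to 0.9976 within the 2 genotypes and from 0.995 to 0.9967 between wild type and 35S::GA20OX. The median within-group SD was 0.0867 in wild type and 0.0889 in 35S::GA20OX. Leaf transcripts were at the top of the scale, with PSBO1, a subunit of photosystem II, at a mean of 14.05 ± 0.02 (SD, n = 3) in wild type and 13.98 ± 0.02 in 35S::GA20OX. All 7 flower markers and all 7 seed storage markers lay among the dimmest 40% of loci.

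The labels name the transgene as GA20OX without a member number, and its identity as GA20OX1 is inferred here from this transcript's level. GA20OX1 (AT4G25420) had log2 values of 6.03, 6.14 and 6.01 in wild type and 12.94, 12.94 and 13.01 in 35S::GA20OX, a difference of 6.90 ± 0.09 (SE; adjusted p = 7.14e-12). The 35S::JAW arrays read 5.07, 5.45 and 5.11, below all wild-type arrays. Beyond the transgene, the 2 genotypes differed little: the median absolute difference over all loci was 0.0733, and 90% of loci lay between -0.20 and 0.20. In all 34 loci rose (0.164% of those tested) and 35 fell (0.168%), together 0.332%. The differences of the loci that rose began at 0.37, had a median of 0.62 and reached 1.55 after GA20OX1, while those that fell ran from -0.37 to -1.47, with a median of -0.64.

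**Figure D1:**
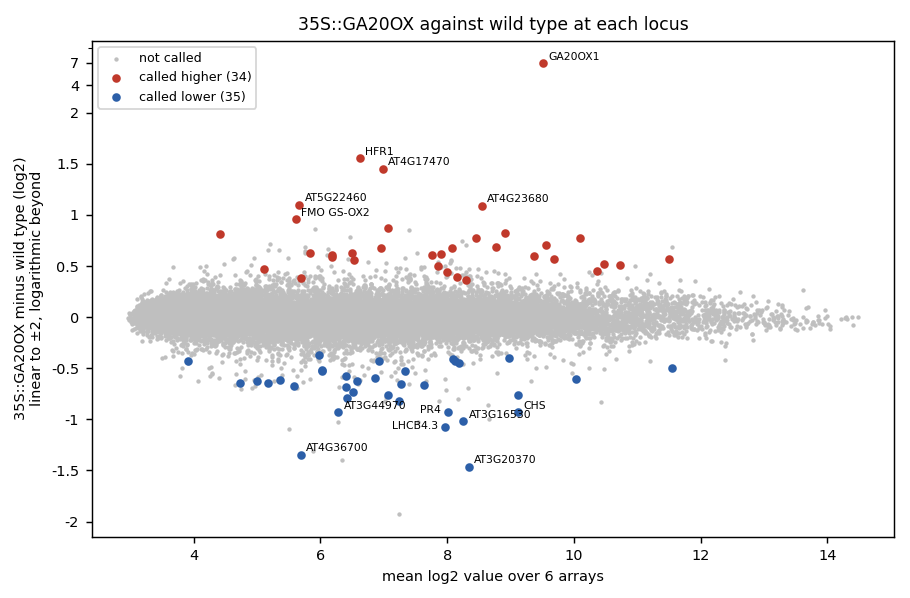
Difference between 35S::GA20OX and wild type (log2, y axis, linear to ±2 and logarithmic beyond) against the mean log2 value over the 6 arrays (x axis), 1 point per locus, with the 34 loci called higher in red and the 35 called lower in blue. GA20OX1 stands alone near 7, and all other called loci lie between -1.47 and 1.55.

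At each of the 69 called loci the 3 transgenic arrays lay on one side of the 3 wild-type arrays (16.8% of all loci did so). Since the same arrays chose these loci, this only describes them. The smallest gap was 0.24, at AT3G19360. The calls differed in how often they were kept when single arrays were left out. Each such fit also has fewer arrays from which to estimate the spread. When each of the 9 arrays was left out in turn, 17 loci were called in all 9 refits, 9 of them higher and 8 lower. These were GA20OX1, HFR1, AT4G17470, AT5G22460, AT4G23680, DR4, CER1, ADS1 and JAL35 among the loci that rose, and AT3G20370, LHCB4.3, AT3G16530, PR4, SWEET1, MYB75, AT1G22690 and GA3OX1 among those that fell. The other 52 lost the call in at least 1 refit, and 4 of them (PR5, AT3G19360, AT4G18970 and AT2G21220) in all 9. These include the refits without a 35S::JAW array, which does not enter the difference, so a lost call need not mean that it rested on that array. Of the 69 loci, 34 were still called without wild type replicate 1, 30 without replicate 2 and 21 without replicate 3. The corresponding numbers were 29, 34 and 32 for the 35S::GA20OX replicates. Below, "k of 9 refits" gives how often a locus was called in these fits.

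Of 14 gibberellin synthesis genes GA20OX1, inferred here to be the transgene, rose and GA3OX1 fell. Of 12 perception and DELLA genes RGL2 rose. Over all loci 0.164% rose and 0.168% fell. GA3OX1 (AT1G15550), which makes the bioactive hormone, read 7.17, 7.12 and 7.20 in wild type and 6.63, 6.44 and 6.63 in 35S::GA20OX. All transgenic arrays were lower, and the gene fell by 0.60 ± 0.07 (adjusted p = 0.00482, 9 of 9 refits). In 35S::JAW it read 7.25, 7.26 and 7.20, overlapping wild type, and it was lower in 35S::GA20OX than in 35S::JAW (difference -0.67 ± 0.07, adjusted p = 9.93e-05). The second GA 3-oxidase of vegetative tissue, GA3OX2, had a difference of -0.17 ± 0.08 and overlapping arrays, and GA3OX3 and GA3OX4 had -0.06 ± 0.07 and 0.22 ± 0.08. The earlier enzymes, from ent-copalyl diphosphate synthase (GA1) through ent-kaurene synthase (GA2), ent-kaurene oxidase (GA3) and the ent-kaurenoic acid oxidases (KAO1 and KAO2), had differences between -0.18 for GA3 and 0.14 for GA1, and none passed. The native sister genes GA20OX2, GA20OX3, GA20OX4 and GA20OX5 had 0.20, 0.04, 0.02 and -0.01. Of these 4, only GA20OX2 had transgenic arrays above all wild-type arrays (adjusted p = 0.34). The same held for GA3OX4 (adjusted p = 0.376). With GA20OX1, these were 3 of the 14 genes, against 8.53% of all loci. GA20OX2 and GA3OX4 read low, with wild-type means of 4.03 and 3.83, and their groups were only 0.07 and 0.06 apart.

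None of the 11 gibberellin deactivation genes passed, and 10 of them were among the dimmest 40% of loci. Among the GA 2-oxidases, GA2OX1 had the largest positive difference, 0.28 ± 0.14, on arrays that read 4.23, 4.18 and 4.25 against 4.38, 4.21 and 4.90: replicate 3 of 35S::GA20OX stood above the others and the groups overlapped. GA2OX2 had 0.21 ± 0.13, and GA2OX3, GA2OX4, GA2OX6, GA2OX7 and GA2OX8 lay between -0.08 and 0.00. GAMT1, which methylates gibberellins, was the 1 gene of the 11 whose groups did not overlap, where 16.8% of all loci did not overlap in either direction. It read 5.11, 5.10 and 4.91 against 4.73, 4.71 and 4.89 (difference -0.26 ± 0.08, adjusted p = 0.279). Its relative GAMT2 had 0.11 ± 0.10, and the cytochrome P450 genes CYP714A1 and CYP714A2 had -0.09 and 0.01.

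Of the 5 DELLA genes RGL2 (AT3G03450) rose. Its values were 5.72, 5.37 and 5.48 in wild type and 6.01, 6.22 and 6.21 in 35S::GA20OX, without overlap, and the difference was 0.62 ± 0.10 (adjusted p = 0.0287, 5 of 9 refits). The other 4 DELLA genes all had positive differences that did not pass: GAI 0.28 ± 0.07, RGL1 0.29 ± 0.09, RGL3 0.22 ± 0.13 and RGA 0.18 ± 0.10. GAI read 9.41, 9.62 and 9.48 against 9.78, 9.84 and 9.74, RGA read 9.33, 9.39 and 9.17 against 9.39, 9.43 and 9.61, and in these 2 genes and RGL1 the groups did not overlap. Of all loci 8.53% had non-overlapping higher arrays. Set against 35S::JAW, 3 of the 5 were higher in 35S::GA20OX: RGL1 by 1.02 ± 0.09 (adjusted p = 3.37e-05), RGL2 by 0.93 ± 0.10 (0.000139) and GAI by 0.70 ± 0.07 (7.03e-05), where the calls over all loci in that comparison amount to 6.52% of loci. Among the receptors, GID1B had -0.35 ± 0.09 with arrays at 4.98, 5.03 and 5.20 against 4.73, 4.70 and 4.75, which did not overlap but did not pass (adjusted p = 0.21), and GID1A and GID1C had 0.01 and -0.05. The F-box genes SLY1 and SNE, whose products carry DELLA proteins to degradation, had -0.02 ± 0.07 and -0.29 ± 0.15, and the sugar transferase genes SPY and SEC, which modify DELLA proteins, had -0.03 and 0.07.

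**Figure D2:**
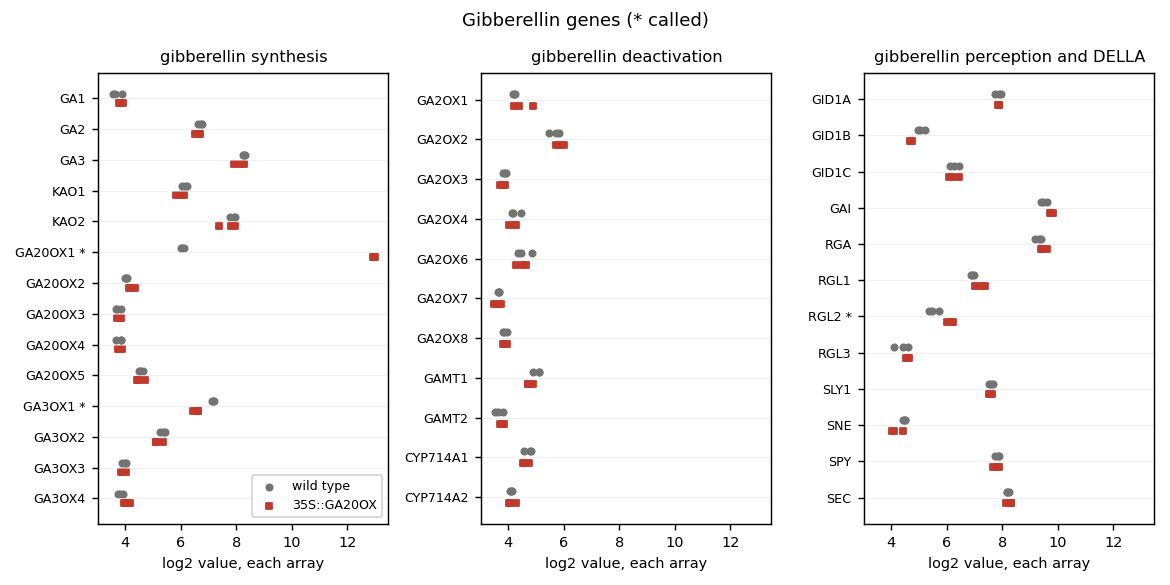
Log2 value on each wild-type array (grey circles) and each 35S::GA20OX array (red squares) for the genes of gibberellin synthesis, deactivation and perception, with called genes starred. GA20OX1, GA3OX1 and RGL2 are called, and the GA 2-oxidase values overlap between the genotypes.

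Of 11 measured genes that DELLA proteins activate, 2 fell, against 0.168% of all loci. These were GA3OX1 and AT3G11280, which read 8.36, 8.36 and 8.31 against 7.96, 7.86 and 7.92 (difference -0.43 ± 0.06, adjusted p = 0.0167, 3 of 9 refits). The list had a median of -0.14, against 0.00 over all loci, and 4 of the 11 had transgenic arrays all below wild type, against 8.3% of loci. Besides the 2 that fell these were GID1B and WRKY27, a transcription factor gene with -0.32 ± 0.10. In 1 of the 11, GA20OX2 (0.20 ± 0.07), the transgenic arrays were all above wild type, against 8.53% of loci, and GID1A had 0.01 ± 0.08. SCL3, a GRAS protein that acts against DELLA, had 0.14 ± 0.11, XERICO had -0.11 ± 0.09, AT2G31730 -0.23 ± 0.11, AT5G50915 -0.14 ± 0.08 and LBD40 0.04 ± 0.09, and none of these passed.

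The GASA genes encode small cysteine-rich peptides, several of which respond to gibberellin. Of 13 measured 2 fell, against 0.168% of all loci, and none rose. AT1G22690 read 10.30, 10.38 and 10.34 in wild type, 9.81, 9.75 and 9.64 in 35S::GA20OX and 10.85, 10.70 and 10.72 in 35S::JAW. The transgenic arrays lay below and the 35S::JAW arrays above all wild-type arrays, and the difference was -0.61 ± 0.07 (adjusted p = 0.00459, 9 of 9 refits). GASA1 read 9.38, 9.72 and 9.41 against 8.80, 8.76 and 8.67 and had -0.76 ± 0.10 (adjusted p = 0.0131, 8 of 9 refits, lost without 35S::GA20OX replicate 3). None of the other 11 passed, with the list median at 0.07 and the largest positive value, 0.21 ± 0.13, at AT2G14900. In AT2G14900 and in AT5G59845, which had 0.12 ± 0.07, the transgenic arrays were all above wild type, as at 8.53% of all loci.

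Growth-related targets of PIF factors and auxin showed few calls, led by HFR1 (AT1G02340), an atypical bHLH protein that binds PIF factors and holds them off DNA. HFR1 read 5.95, 5.77 and 5.81 in wild type and 7.47, 7.11 and 7.62 in 35S::GA20OX, and rose by 1.55 ± 0.15, or 2.94-fold (adjusted p = 0.00166, 9 of 9 refits). The 35S::JAW arrays lay in between, at 6.55, 5.98 and 6.31, and the 2 transgenic lines differed by 1.12 ± 0.15 (adjusted p = 0.000583). The remaining 20 of the 21 measured PIF and shade genes did not pass, where 0.164% of all loci rose. PRE1, a small bHLH gene that promotes elongation, read 7.87, 7.75 and 7.96 against 8.79, 8.40 and 8.63 without overlap, with a difference of 0.74 ± 0.20 (adjusted p = 0.191), and the auxin gene IAA19 read 7.23, 7.37 and 7.43 against 7.89, 7.77 and 7.85 and had 0.49 ± 0.09 (adjusted p = 0.051). Both were higher in 35S::GA20OX than in 35S::JAW, with direct differences of 2.67 ± 0.20 for PRE1 (adjusted p = 7.86e-06) and 1.09 ± 0.09 for IAA19 (1.86e-05). A direct difference also takes in any shift of 35S::JAW from wild type. The list median was 0.01.

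Among 34 measured genes of auxin response and transport IAA6 (AT1G52830), an Aux/IAA repressor, rose, from 5.80, 6.09 and 5.74 to 6.48, 6.63 and 6.35 (difference 0.61 ± 0.10, adjusted p = 0.03, 4 of 9 refits), against 0.164% of all loci. The next were IAA19 and the auxin efflux carrier gene PIN3 (0.22 ± 0.07, adjusted p = 0.289), and the list median was 0.09. Outside the list, 2 small auxin-up RNA genes rose. SAUR27 read 6.35, 6.17 and 6.24 against 6.84, 6.69 and 6.91 (difference 0.56 ± 0.09, adjusted p = 0.0239, 5 of 9 refits), and AT2G21220, recorded as SAUR12, read 4.79, 4.90 and 4.94 against 5.33, 5.49 and 5.24 (0.47 ± 0.08, adjusted p = 0.0477, 0 of 9 refits). The 2 genes parted in 35S::JAW, where SAUR27 read 5.96, 5.76 and 5.99, below wild type, and AT2G21220 read 5.96, 5.85 and 5.76, above 35S::GA20OX. No expansin (16 measured, median 0.14) and no XTH gene (19 measured, median -0.01) passed. EXLB1, with 0.55 ± 0.14 (adjusted p = 0.166), and EXP3, with 0.32 ± 0.08 (adjusted p = 0.151), had the lowest p of the expansins together with non-overlapping arrays (8.53% of all loci higher), and XTH9 and XTH15 had -0.28 ± 0.10 and -0.32 ± 0.13.

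In the brassinosteroid list of 11 measured genes BAS1 (AT2G26710) fell, against 0.168% of all loci. BAS1 encodes the cytochrome P450 that inactivates brassinosteroids, and it read 6.72, 6.65 and 6.68 in wild type, 6.22, 6.07 and 6.04 in 35S::GA20OX and 5.42, 5.25 and 5.41 in 35S::JAW, 3 levels without overlap. The difference from wild type was -0.57 ± 0.07 (adjusted p = 0.0101, 8 of 9 refits, lost without wild type replicate 3), and from 35S::JAW 0.75 ± 0.07 (adjusted p = 6.51e-05). The synthesis genes CYP90D1, DWF4 and BR6OX2 had -0.37 ± 0.09, -0.37 ± 0.10 and -0.34 ± 0.12, each with arrays that did not overlap and none past the threshold. Non-overlapping lower arrays occurred at 8.3% of all loci. The list median of -0.16 ranged from -0.28 to -0.05 when single arrays were left out.

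The flavonoid and anthocyanin list, the pathway of flavonol sunscreens and purple pigments, held more loci that fell than any other list here: 6 of 28 measured fell and none rose, against 0.168% of all loci lower. The list median was -0.17 (-0.21 to -0.13 with single arrays left out), and 11 of the 28 had non-overlapping lower arrays, against 8.3% of loci, and 1, UGT78D1 (0.23 ± 0.08), non-overlapping higher ones. MYB75 (AT1G56650, also called PAP1), a MYB transcription factor that switches on the anthocyanin branch, read 5.05, 5.01 and 5.10 in wild type and 4.36, 4.36 and 4.503 in 35S::GA20OX. All transgenic arrays were lower, and the gene fell by 0.64 ± 0.07 (adjusted p = 0.00386, 9 of 9 refits). MYB75 was 1 of 9 called loci among the dimmest 40% of all loci. The related activators MYB90, MYB113 and MYB114 had 0.05, 0.14 and 0.10, and the bHLH partners TT8 and EGL3 0.00 and 0.03, none of which passed.

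Enzymes of the same pathway fell at its entry and at its end. Chalcone synthase (CHS, AT5G13930), the entry enzyme, read 9.54, 9.38 and 9.82 against 8.61, 8.91 and 8.44, a difference of -0.93 ± 0.13 (adjusted p = 0.014, 7 of 9 refits, not called when wild type replicate 3 or 35S::GA20OX replicate 1 was omitted). GSTF12, needed to bring anthocyanins into the vacuole, read 7.58, 7.18 and 7.56 against 6.68, 6.58 and 6.78 (-0.76 ± 0.11, adjusted p = 0.0153, 5 of 9 refits). The glycosyltransferase gene UGT79B1 read 6.85, 6.68 and 7.10 against 6.005, 6.31 and 6.12 (-0.73 ± 0.13, adjusted p = 0.0451, 2 of 9 refits). In all of these the 3 transgenic arrays were below wild type. AT4G14090, a locus of the list with no name in the gene table, read 6.73, 6.65 and 7.08 against 5.90, 6.10 and 6.10 (-0.79 ± 0.12, 4 of 9 refits), and the malonyltransferase gene AT5MAT read 5.56, 5.14 and 5.23 against 4.61, 4.79 and 4.65 (-0.62 ± 0.11, adjusted p = 0.0482, 1 of 9 refits). Dihydroflavonol reductase (DFR), which opens the anthocyanin branch, and flavonol synthase (FLS1), which opens the flavonol branch, missed the threshold with -0.78 ± 0.16 (adjusted p = 0.0786) and -0.66 ± 0.12 (0.0524). The steps in between did not pass, with CHI at -0.03, F3H at -0.20 and TT7 at -0.31, nor did C4H of the preceding phenylpropanoid pathway at 0.07.

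The flavonoid genes took different places in 35S::JAW. GSTF12 read 6.16, 6.10 and 5.95 there, AT4G14090 5.63, 5.86 and 5.55 and MYB75 4.21, 4.25 and 4.07, below all arrays of 35S::GA20OX, whereas CHS read 9.37, 9.36 and 9.27, between the other 2 genotypes. Tested directly, GSTF12 was higher in 35S::GA20OX than in 35S::JAW (0.61 ± 0.11, adjusted p = 0.00362), as was DFR, at means of 6.64 and 5.64 (adjusted p = 0.00157), while CHS and FLS1 were lower (-0.68 ± 0.13, adjusted p = 0.00482, and -0.53 ± 0.12, adjusted p = 0.0143), in a test that called 6.71% of all loci lower. The MYB repressor gene MYBL2 had -0.45 ± 0.12 against wild type (adjusted p = 0.178) and -0.95 ± 0.12 against 35S::JAW (0.000285).

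Glucosinolates, the sulfur-rich defence compounds of the cabbage family, are made from methionine (aliphatic) or tryptophan (indolic) and are broken down by myrosinases. Of 26 measured aliphatic genes 1 rose, against 0.164% of all loci: FMO GS-OX2 (AT1G62540), which oxidises the side chain. It read 5.27, 4.98 and 5.15 against 5.84, 6.03 and 6.39 (difference 0.96 ± 0.14, adjusted p = 0.0162, 6 of 9 refits). In 23 of the 26 the difference was positive, the list median was 0.34, and 17 had non-overlapping higher arrays, against 8.53% of loci. SOT18, a sulfotransferase that completes the core structure, read 9.63, 9.40 and 9.66 against 9.91, 9.93 and 10.11 (0.42 ± 0.09, adjusted p = 0.0964). MAM1, which lengthens the methionine chain, read 11.52, 11.35 and 11.60 against 11.82, 11.74 and 11.99 (0.36 ± 0.08, adjusted p = 0.133). Wild type replicate 2 was the lowest of the 3 wild-type arrays in 23 of the 26 genes, against 38.9% of all loci, and without it the median was 0.24. The part of that array in the result beyond this refit was not tested. The 3 paralogous side chain oxidases FMO GS-OX1, FMO GS-OX3 and FMO GS-OX4 had 0.40 ± 0.12, 0.39 ± 0.11 and -0.14 ± 0.13, and the regulators MYB28, MYB29 and MYB76 had 0.23, 0.41 and 0.21. None of the 14 indolic genes passed, and their median was 0.02, with UGT74B1 at 0.20 ± 0.08 and IGMT1 at -0.34 ± 0.14.

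In the list of glucosinolate breakdown and endoplasmic reticulum (ER) bodies, 4 of 13 measured genes rose and none fell, against 0.164% of loci higher. ESP (AT1G54040), which steers breakdown towards nitriles, read 9.08, 8.97 and 9.15 in wild type, 9.74, 9.73 and 9.51 in 35S::GA20OX and 6.63, 6.74 and 6.95 in 35S::JAW. It was thus above wild type in one line and far below it in the other, with 0.59 ± 0.10 against wild type (adjusted p = 0.0287, 4 of 9 refits) and 2.89 ± 0.10 against 35S::JAW (adjusted p = 1.36e-08). TSA1 (AT1G52410), an ER body protein gene, read 7.60, 7.59 and 7.58 against 8.16, 8.14 and 8.32 (0.62 ± 0.08, adjusted p = 0.0143, 6 of 9 refits). Its direct neighbour BGLU18 (AT1G52400), a beta-glucosidase of inducible ER bodies that was in no list, read 11.18, 11.18 and 11.30 against 11.74, 11.74 and 11.90 and rose as well (0.57 ± 0.08, adjusted p = 0.0143, 6 of 9 refits). The genes of constitutive ER bodies, NAI2 and the beta-glucosidase gene PYK10, had -0.33 ± 0.11 and -0.18 ± 0.10, with lower arrays that did not overlap wild type and no call. ESM1, the uncalled gene of lowest p in the list, had -0.24 ± 0.07 (adjusted p = 0.211), and its transgenic arrays were also all below wild type, as in 3 of the 13 genes (8.3% of all loci).

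Among called loci that carry a jacalin-related lectin name, JAL35 and JAL23 rose. Called loci with only a locus code were not sorted by family here, so other lectin genes among them, of either direction, are not covered. JAL35 (AT3G16470) read 10.21, 10.12 and 10.29 against 10.79, 10.72 and 10.67 and rose (0.52 ± 0.07, adjusted p = 0.0101, 9 of 9 refits), while JAL34, which lies beside it, read 9.98, 9.59 and 9.84 against 9.60, 9.17 and 9.54 and had -0.37 ± 0.13 (adjusted p = 0.358). JAL23 went from 4.15, 3.93 and 3.93 to 4.82, 4.56 and 5.07 (0.81 ± 0.13, adjusted p = 0.03, 4 of 9 refits), and its list mate JAL22 had 0.02. Cross-hybridisation among these related lectins was not tested. Of the defence list, 2 of 14 measured genes fell, against 0.168% of all loci. PR4, a hevein-like protein gene, read 8.50, 8.60 and 8.33 against 7.69, 7.42 and 7.55 (-0.92 ± 0.09, adjusted p = 0.00168, 9 of 9 refits), and PR5, a thaumatin-like protein gene, read 6.16, 6.12 and 6.20 against 5.86, 5.76 and 5.74 (-0.37 ± 0.07, adjusted p = 0.0477, 0 of 9 refits). In 35S::JAW PR5 read 7.78, 7.87 and 7.92, above all arrays of the other 2 genotypes. The transcription factor gene WRKY70 had a difference of -0.80 ± 0.32 on arrays that overlapped (8.66, 9.18 and 7.88 against 7.82, 7.47 and 8.04), and NPR1, a receptor of salicylic acid, had -0.28 ± 0.08 (adjusted p = 0.242).

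Of 12 measured light-harvesting genes 1 fell, against 0.168% of all loci. LHCB4.3 (AT2G40100), an isoform of the minor antenna protein CP29, read 8.40, 8.57 and 8.55 in wild type, 7.28, 7.57 and 7.43 in 35S::GA20OX and 8.40, 8.30 and 8.24 in 35S::JAW. The 35S::GA20OX arrays were lowest and those of 35S::JAW overlapped wild type, and the difference from wild type was -1.08 ± 0.09 (adjusted p = 0.000496, 9 of 9 refits). Its isoform LHCB4.2 had -0.10 ± 0.06, LHCA5 had -0.14 ± 0.06, and the list had a median of -0.02. Compared with 35S::JAW, LHCB4.3 had a difference of -0.89 ± 0.09 (adjusted p = 6.35e-05). None of the 73 chloroplast loci passed, where differences ran from -0.17 to 0.39.

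Surface lipid genes gave a call in the wax list and further ones outside it. CER1 (AT1G02205), which makes wax alkanes, read 9.69, 9.59 and 9.87 against 10.52, 10.58 and 10.38, rose by 0.78 ± 0.09 (adjusted p = 0.00382, 9 of 9 refits) and was the 1 call among 23 measured wax genes (0.164% of all loci rose). Its partner CER3 read 9.42, 9.49 and 9.51 against 9.77, 9.80 and 9.57 (0.24 ± 0.07, adjusted p = 0.283), and the repressor gene DEWAX read 10.16, 10.41 and 10.05 against 10.03, 10.001 and 9.78 (-0.27 ± 0.10, adjusted p = 0.367), with groups that did not overlap in either gene (16.8% of all loci in either direction). ADS1, a desaturase gene, read 9.12, 9.28 and 9.21 against 10.05, 9.82 and 9.85 and rose (0.70 ± 0.08, adjusted p = 0.00441, 9 of 9 refits). In 35S::JAW it read 8.71, 8.73 and 8.85, below wild type. FAR1, a fatty acid reductase gene, rose by 0.50 ± 0.09 (1 of 9 refits), and the lipid transfer protein gene LTP5 fell, from 11.72, 11.86 and 11.83 to 11.33, 11.39 and 11.18 (-0.50 ± 0.07, adjusted p = 0.0153, 5 of 9 refits).

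Cell cycle and leaf growth lists held no call. The 8 measured D-type cyclins, which start cell division, all had negative differences with a median of -0.235 (-0.235 to -0.18 with single arrays left out), and in 4 of them the transgenic arrays were all below wild type, against 8.3% of all loci. CYCD3;3 read 7.06, 7.01 and 7.11 against 6.80, 6.71 and 6.84 (-0.27 ± 0.07, adjusted p = 0.179), and CYCD2;1 had -0.23 ± 0.07. Of 14 S phase genes CDC6, a replication licensing factor, had -0.35 ± 0.09 (adjusted p = 0.168) and TSO2 -0.30 ± 0.08. Of 11 G2 and mitosis genes CYCB2;1 had 0.23 ± 0.09 and CYCA1;1 -0.23 ± 0.09, and among the cell cycle inhibitors KRP7 had 0.09 ± 0.08 and KRP1 0.10 ± 0.08. Medians were -0.08 for S phase, 0.04 for G2 and mitosis and 0.01 for cell cycle inhibitors. In the list of GRF and GIF regulators of leaf cell number, GRF1 (-0.35 ± 0.08, adjusted p = 0.11) and GIF1 (-0.41 ± 0.10, adjusted p = 0.173) had arrays below all wild-type arrays (8.3% of all loci), without passing.

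Guard cell and stomatal markers gave no call. Of the 17 listed, 13 had negative differences, 7 had non-overlapping lower arrays (8.3% of all loci), 2 had non-overlapping higher ones (8.53%), and the median was -0.21 (-0.28 to -0.13 with single arrays left out). In RNA from the whole vegetative part, fewer cells of a type and less RNA per cell cannot be told apart. MYB60, a guard cell transcription factor gene, read 7.32, 7.43 and 7.48 against 7.17, 6.57 and 6.75 (-0.58 ± 0.12, adjusted p = 0.0993). SDD1, a protease gene of stomatal spacing, read 7.45, 7.31 and 7.40 against 7.05, 6.92 and 6.86 (-0.44 ± 0.10, adjusted p = 0.118). FLP, a MYB gene of the last division, had the opposite sign, 0.37 ± 0.11, as had EPFL9, a secreted peptide gene that promotes stomata, with 0.21 ± 0.07, and in both the transgenic arrays were all above wild type. Outside the list ALMT12 (AT4G17970), an anion channel gene of stomatal closure, fell, from 6.54, 6.97 and 6.73 in wild type to 6.03, 6.15 and 6.01 (-0.69 ± 0.10, adjusted p = 0.0153, 6 of 9 refits), and read 7.10, 6.999 and 7.02 in 35S::JAW.

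The other marker lists held no call. All 10 xylem markers had positive differences (median 0.22), with LAC17 at 0.33 ± 0.09 and XCP2 at 0.30 ± 0.10. In the phloem list SEOB had 0.28 ± 0.07 (adjusted p = 0.133) and PP2-A1 -0.16 ± 0.06. The trichome list had a median of 0.00, with GIS at -0.27 ± 0.11 and MYB106 at 0.12 ± 0.08, and the 4 measured mesophyll markers lay between -0.07 for PSBO1 and 0.02 for GAPA, with CA1 at -0.03. Root markers, 9 of 10 of them among the dimmest 40% of loci, had a median of -0.17, with TIP2;3 at -0.22 ± 0.12 and PYK10 as above. Flower and seed markers, all dim, had medians of 0.12 (SEP3 with 0.25 ± 0.12, SEP1 with 0.12 ± 0.06) and 0.08 (CRA1 with 0.19 ± 0.13, SESA3 with 0.08 ± 0.07). The 8 measured heat shock genes, 6 of them among the dimmest 40% of loci, all had positive differences (median 0.15). HSP70 read 5.50, 5.27 and 5.45 against 5.63, 6.55 and 6.11 (0.69 ± 0.18), and HSP101 had 0.25 ± 0.09. Jasmonate response genes had a median of 0.11, led by JAZ9 (0.40 ± 0.12) and JAZ6 (0.31 ± 0.10), and flowering genes -0.03, with SPL4 (-0.44 ± 0.10, adjusted p = 0.11) and FT (0.21 ± 0.07) ahead.

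**Figure D3:**
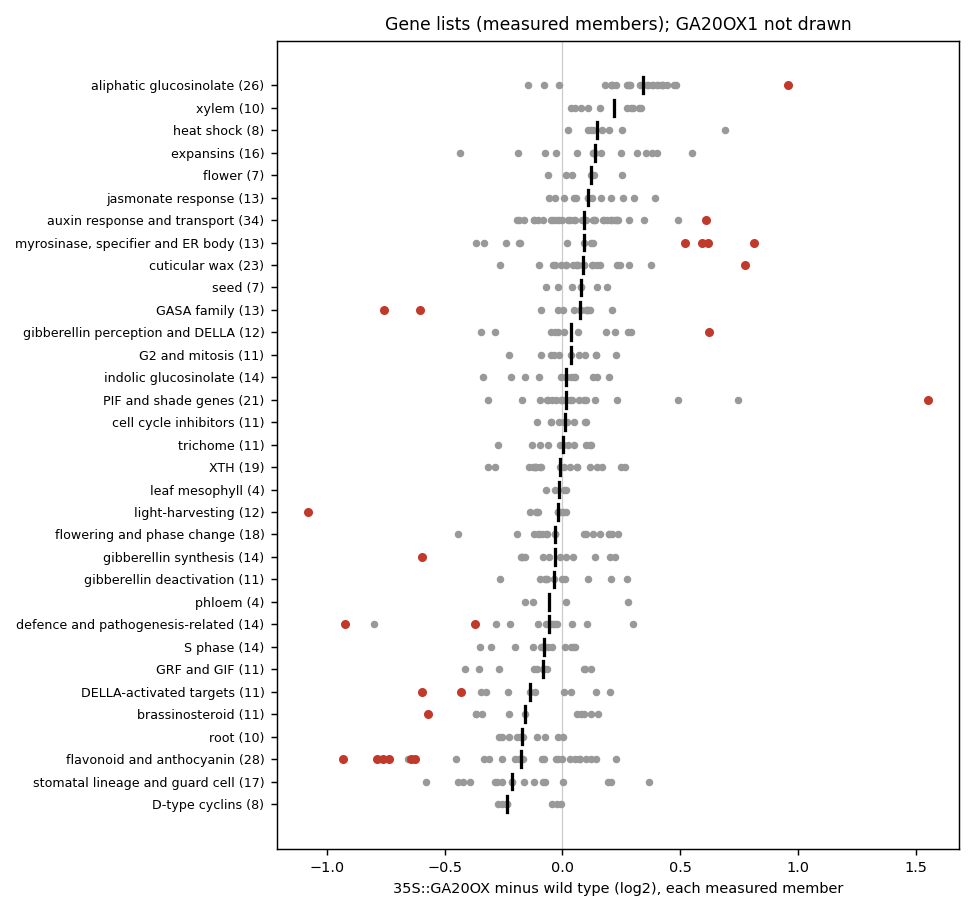
Difference between 35S::GA20OX and wild type (log2, x axis) for each measured member of the gene lists (y axis, number measured in brackets), with called members in red and the list median as a black bar. Aliphatic glucosinolate genes sit highest by their median, D-type cyclins and stomatal genes lowest, and calls are most numerous among flavonoid genes. GA20OX1 is not drawn.

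Most calls, 45 of 69, were in no list, and 33 of the 69 carry only a locus code in the gene table. Among the loci that rose, AT4G17470 read 6.22, 6.06 and 6.48 in wild type, 7.62, 7.89 and 7.62 in 35S::GA20OX and 5.23, 5.01 and 4.75 in 35S::JAW. It rose by 1.45 ± 0.14 (adjusted p = 0.0016) and was lower than wild type on every 35S::JAW array. AT4G23680 behaved likewise, at 8.13, 7.91 and 7.96, 8.97, 9.17 and 9.13 and 6.33, 6.59 and 6.52 (1.09 ± 0.09, adjusted p = 0.00055). By contrast AT5G22460, at 5.01, 5.10 and 5.25 against 6.13, 6.17 and 6.35 (1.097 ± 0.09, adjusted p = 0.000496), was higher still in 35S::JAW, at 6.73, 6.56 and 6.72. AT2G34810 rose from 6.59, 6.72 and 6.59 to 7.57, 7.39 and 7.54 (0.87 ± 0.11, 8 of 9 refits), and DR4, named for its repression by drought, from 8.53, 8.41 and 8.57 to 9.37, 9.28 and 9.33 (0.83 ± 0.09, adjusted p = 0.00307, 9 of 9 refits). RCI2B, a small membrane protein gene induced by cold, rose from 8.04, 8.18 and 8.01 to 8.94, 9.09 and 8.51 (0.77 ± 0.14, 2 of 9 refits) and read 6.99, 6.70 and 7.03 in 35S::JAW, below all other arrays.

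Smaller increases were seen in the purple acid phosphatase gene PAP8 (0.68), AT1G52000 (0.68), AT1G10640 (0.68), AT4G29270 (0.63), the heavy metal binding protein gene HIPP25 (0.61), AT5G38020 (0.59), AT5G45670 (0.57) and the major latex protein-like gene MLP28 (0.51). AT4G18970 (0.45), AT1G72810 (0.44), AT3G27180 (0.39), AT3G19360 (0.39) and AT3G21950 (0.37) complete the 34. AT3G21950 was the smallest change called, with wild-type arrays at 8.12, 8.10 and 8.14 and transgenic arrays at 8.48, 8.53 and 8.45. All 3 transgenic arrays lay above wild type, and both groups had little spread, but the call was kept in 2 of 9 refits. The loci of this paragraph were called in 0 (AT3G19360 and AT4G18970) to 6 (AT1G52000) of 9 refits.

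On the lower side AT3G20370 read 9.42, 8.88 and 8.94 in wild type, 7.56, 7.42 and 7.85 in 35S::GA20OX and 7.73, 7.24 and 7.51 in 35S::JAW, the deepest fall among the called loci (-1.47 ± 0.16, adjusted p = 0.00386, 9 of 9 refits). It was low in both transgenic lines, and the direct difference between them was 0.12 ± 0.16 (adjusted p = 0.729). AT4G36700 fell by 1.35 ± 0.24 with a wide spread, reading 6.16, 6.41 and 6.53 against 5.56, 4.40 and 5.10 (1 of 9 refits). AT3G16530 fell in 35S::GA20OX and was high in 35S::JAW, at 8.71, 8.92 and 8.66, 8.003, 7.73 and 7.51 and 10.46, 10.53 and 10.17 for the 3 genotypes (-1.02 ± 0.13, adjusted p = 0.0101, 9 of 9 refits). The sugar transporter gene SWEET1 showed the same order with little spread. Its values were 7.99, 8.02 and 7.91 in wild type, 7.29, 7.30 and 7.34 in 35S::GA20OX and 9.92, 10.15 and 10.09 in 35S::JAW, and it fell by 0.67 ± 0.07 (adjusted p = 0.00382, 9 of 9 refits).

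Other loci that fell were AT3G44970 (-0.93), AT1G52100 (-0.82), AT1G49700 (-0.67), AT4G27300 (-0.65), the glutathione transferase gene GSTU8 (-0.65) and AT5G45840 (-0.62). In that order they were called in 1, 5, 4, 5, 2 and 2 of 9 refits. AT3G44970, GSTU8 and AT5G45840 lay close to the threshold, each with an adjusted p of 0.0477. LOV1, a NAC transcription factor gene that delays flowering, fell from 6.80, 6.91 and 6.95 to 6.25, 6.29 and 6.24 (-0.63 ± 0.09, adjusted p = 0.0143, 5 of 9 refits). The SKU5-like gene sks9 (-0.53), AT5G10290 (-0.53), AT5G25770 (-0.51), AT3G51660 (-0.45), AT1G52770 (-0.43), AT4G02420 (-0.43), AT5G57655 (-0.41) and AT1G78460 (-0.40) complete the 35. In this last group the calls held in 1 (AT4G02420) to 7 (AT5G10290) of 9 refits.

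Values of both transgenic lines are drawn side by side in the plot of called loci. In the direct test of 35S::GA20OX against 35S::JAW, which called 13.2% of all loci, 53 of the 69 were called. Of these, 30 were higher and 23 lower in 35S::GA20OX. Both tests use the 35S::GA20OX arrays, so this count is a description. The lines were not distinguished at the other 16, which include AT3G20370, AT1G52100, AT3G11280, MYB75, PAP8 and MLP28.

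**Figure D4:**
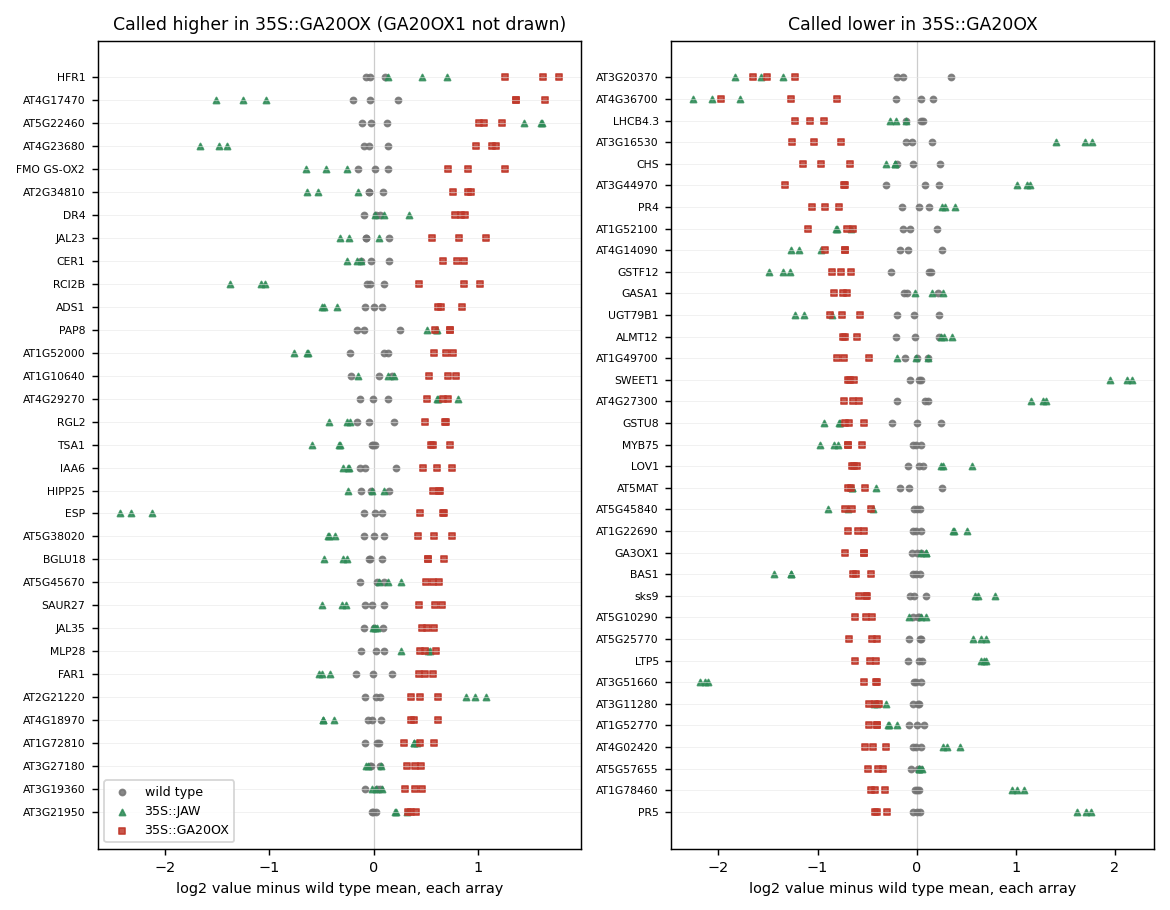
Log2 value of each array minus the wild-type mean (x axis) for the loci called higher (left, without GA20OX1) and lower (right) in 35S::GA20OX, with wild type as grey circles, 35S::GA20OX as red squares and 35S::JAW as green triangles. Red and grey do not overlap at any locus, and the green triangles lie on either side of wild type, as for ESP and SWEET1.

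Called loci were also placed in the order of the locus codes. There were 8 pairs of successive called loci within 20 measured loci of each other, and in 4 of them the partners moved in opposite directions: AT1G52000 with AT1G52100, AT1G52770 with IAA6, JAL35 with AT3G16530, and AT5G45670 with AT5G45840. Whether this is more pairs than random placement of the calls would give was not tested. BGLU18 with TSA1 and AT5G22460 with FAR1 rose as close pairs, and LTP5 and AT3G51660 fell. CER1 and HFR1, which both rose, lie 11 measured loci apart on chromosome 1. The 10 loci measured between them had differences from -0.17 to 0.17, and none passed (lowest adjusted p = 0.398). Just outside them AT1G02190, listed with the wax genes, had 0.28 ± 0.09 and the acyltransferase gene GPAT2 0.41 ± 0.12, neither of them called. Over all 119 uncalled loci between and within 5 positions of these pairs, differences ran from -0.37 to 0.41.

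**Figure D5:**
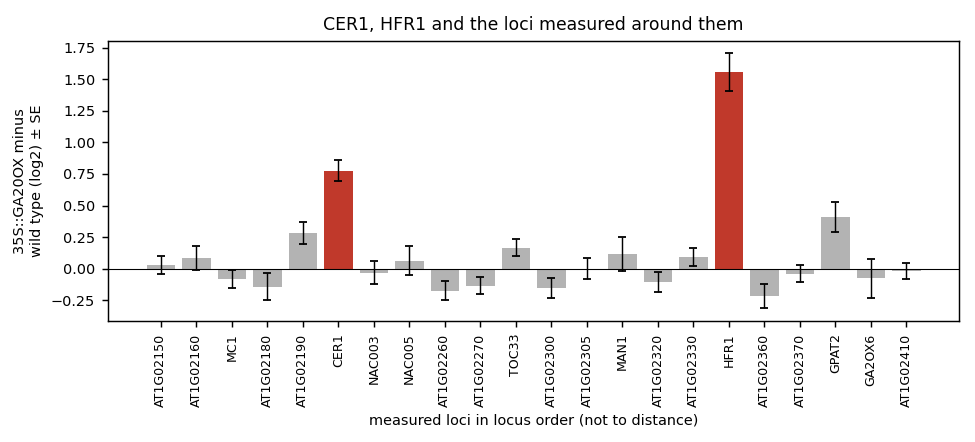
Difference between 35S::GA20OX and wild type (log2, y axis, bars from 0 with SE) for CER1, HFR1 and the loci measured between and beside them, in locus order (x axis, not to distance), with called loci in red. CER1 and HFR1 stand out from loci that lie between -0.17 and 0.17 between them.

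Just outside the threshold, 72 further loci had an adjusted p between 0.05 and 0.10, 36 higher and 36 lower. The lower ones with the largest differences were QQS (-1.02 ± 0.20), a gene that affects leaf starch, AT5G01870 (-0.83 ± 0.15), DFR, AT2G38300 (-0.70 ± 0.14), FLS1 and AT5G26280 (-0.61 ± 0.12). On the higher side these were AT3G53250 (0.78 ± 0.16), AT1G23205 (0.70 ± 0.15), the peptide gene RTFL5 (0.65 ± 0.13), the sulfate transporter gene SULTR3;1 (0.62 ± 0.13), GDPD6 (0.60 ± 0.11) and ACR1 (0.58 ± 0.11). RTFL5 read 5.09, 4.57 and 4.90, 5.61, 5.46 and 5.45 and 3.39, 3.58 and 3.22 in the 3 genotypes, and the direct difference from 35S::JAW was 2.11 ± 0.13 (adjusted p = 2.16e-06).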

How the data were processed

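Arrays were Affymetrix ATH1, hybridised with total RNA extracted with an RNeasy plant kit, per the labels' protocols. The deposited values are log2 expression values made by the authors with RMA, per the submitters' processing notes, 1 row per locus code, with no detection calls, which leaves signal over background unknown. RMA gives arrays nearly the same distribution and compresses changes of dim genes. Neither RMA's version nor chip definition or build is given in the sources used here.

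The test was limma 3.58.1 (lmFit and eBayes under R 4.3.3, genotype means fitted jointly to the 9 arrays, two-sided, 6 residual and 5.04 prior degrees of freedom), with Benjamini-Hochberg adjustment over 20777 loci. No dim locus was left out. On simulated data for 35S::GA20OX minus wild type over 20777 loci, 61% of 200 changes of 0.5 and 95% of 200 changes of 1 were recovered. Names came from a RefSeq table of TAIR10.1, which held 20508 loci. Loci were named by a fixed rule: every called locus, the gibberellin and DELLA lists in full, called members and the 2 lowest-p uncalled members of other lists, loci next to the threshold, the largest uncalled differences, and neighbours of called pairs (mostly by range). Further list members, named as relatives or pathway steps, were chosen after their values were seen. Replicate numbers were not used to pair the arrays. Deviations of same-numbered wild-type and 35S::GA20OX arrays correlated at -0.102, 0.025 and 0.049. Those of 35S::JAW, also in the fit, correlated at 0.101, 0.101 and 0.028 with wild type. With 35S::GA20OX they correlated at 0.153, 0.251 and 0.048. The comparison, lists and rule were chosen with earlier results of these data known. Of 499 listed loci 447 were measured. Alternatives were cyclic loess, median centring, leaving out the dimmest 40%, an intensity trend with robust prior, a replicate block, the 6 arrays alone, stricter thresholds and leaving out each array.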

Additional observations from a re-analysis of the deposited data

How the results depend on the processing

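The count of 69 called loci was 108 (55 higher and 53 lower) without the dimmest 40% of loci, 205 (102 and 103) with an intensity trend and robust prior, 15 at an adjusted p of 0.01 and 9 with a 2-fold minimum. It lay between 22 (without wild type replicate 3) and 79 (without 35S::JAW replicate 2) with 1 array left out: 39 without wild type replicate 1, 35 without replicate 2, and 36, 43 and 37 without 35S::GA20OX replicates 1, 2 and 3. With cyclic loess it was 82, with median centring 77 and with the 6 arrays alone 58. With the replicate number as a block it was 74, and 54 of the 69 loci were called again. The count called against 35S::JAW was 53 to 55 of the 69 under the alternatives run on all loci, 53 with the replicate block. Without the dimmest 40% it was 51 of the 60 loci left. The 6 arrays alone hold no 35S::JAW array and give no such count. No called locus changed direction in any of its refits. Of 1026 such values 316 lost the call, and of 3384 values for uncalled named loci 55 gained one and 115 changed sign. The causes were not tested. List medians under these settings were added after seeing the data. The 69 calls compare with 2174 loci at an unadjusted p under 0.05.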

Other observations

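The deepest difference in the whole comparison was not called. bHLH39 (AT3G56980), a transcription factor gene induced by iron deficiency, read 8.29, 8.38 and 7.94 in wild type and 6.89, 4.49 and 7.45 in 35S::GA20OX, a difference of -1.93 ± 0.71 (adjusted p = 0.367). BHLH101 (AT5G04150), a relative in the same response, read 7.56, 6.80 and 6.77 and 5.91, 4.57 and 6.45 (-1.399 ± 0.48, adjusted p = 0.327). In both genes all 3 transgenic arrays lay below wild type, 35S::GA20OX replicate 2 lay lowest, and the spread within 35S::GA20OX was wide (SD 1.58 for bHLH39 against 0.233 in wild type). The 35S::JAW arrays were scattered too, at 7.19, 6.10 and 4.66 for bHLH39 and 6.88, 5.999 and 5.14 for BHLH101. These genes were picked after their values were seen, and of the 4 related bHLH genes looked for, 2 were measured.

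Other large differences without a call were in GSTU24, which read 5.09, 7.66 and 6.87 and 5.76, 5.20 and 4.73 (-1.31 ± 0.50), in AT2G04050, which read 4.17, 7.80 and 6.19 and 6.44, 4.33 and 4.102 (-1.096 ± 0.78), and in AZI1, which read 6.21, 7.71 and 6.46 and 5.64, 5.89 and 5.76 (-1.027 ± 0.39). The wild-type arrays spread widely in GSTU24 and AT2G04050, with replicate 2 highest and replicate 1 lowest in both. On the higher side, the nitrate transporter gene NRT1.9 read 5.50, 5.30 and 5.65 and 5.97, 6.53 and 6.55 (0.87 ± 0.22), AT5G03545 had 0.86 ± 0.24, and AT5G51540 had 0.71 ± 0.37 with wild type replicate 3 low, at 3.67 against 5.48 and 5.38.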
